A study of Mus musculus with 24 samples.

Results

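The transcription factor gene Nfat5 and 6 genes that handle organic osmolytes, urea or osmotic stress (Akr1b3, Slc5a3, Slc6a6, Slc6a12, Hspa4l and Slc14a2) were followed in mpkCCD cells, a mouse line derived from kidney cortical collecting duct. The 7 genes were taken by symbol through the mouse annotation of the Ensembl identifiers, out of 54432 genes in the deposited tables. Cells received dDAVP, a vasopressin analog that acts on the V2 receptor, or vehicle, and RNA was collected at 3, 6, 12 or 24 h. Each of the 8 combinations had 3 libraries, 24 in all. All groups shared the wild-type C57BL/6 background, passage 10-11, growth for 6 days on permeable filters, 24 h in minimal medium beforehand and application of dDAVP or vehicle from the basolateral side. The line is an immortal culture model, and the labels name no change of osmolality in any group.

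NFAT5, also called TonEBP, is activated when the medium around a cell becomes hypertonic, as in the renal medulla. It binds tonicity enhancers (TonE) and raises genes that load the cell with organic osmolytes such as sorbitol, myo-inositol, betaine and taurine, which balance the outside salt without disturbing proteins. In the medulla its known targets also include chaperones of the HSP70 superfamily and the vasopressin-regulated urea transporter.

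Library totals ran from 17.25 M to 27.64 M estimated counts (M standing for the prefix mega). The labels do not say whether the replicates were separate cultures, and p-values then reflect only how far these libraries spread, possibly for technical reasons. All 9 general epithelial markers of the collecting duct were at or above 1 TPM, summing to 2180 to 2630 TPM over libraries. Of 11 principal cell markers 7 reached that level, and Scnn1b, Kcnj1 and Tfap2b stayed under 0.5 TPM. Of 5 intercalated cell markers 0 reached it. Receptor genes of the olfactory and vomeronasal families, 1457 in all and best known from sensory epithelia, held 0.135% to 0.901% of the counts of a library. That percentage, called the receptor share here, differed between groups: at 6 h it was 0.526% ± 0.0727 (SD, n = 3) with vehicle and 0.196% ± 0.0727 (SD, n = 3) with dDAVP. It was therefore also entered as a covariate, and its values stand beside the results it moves with. At 6 h the shares of vehicle (0.443% to 0.581%) and dDAVP (0.135% to 0.276%) did not overlap. Nor did they overlap between 3 and 24 h of either treatment, or between 6 and 12 h of dDAVP. In those comparisons the share cannot be told apart from treatment or time, and a value with the covariate is not an effect freed of it.

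Levels were compared between genes in TPM, which the authors scaled for transcript length and library depth. Akr1b3, aldose reductase, which makes sorbitol from glucose, was by far the most abundant at 225 ± 38.9 TPM (SD, n = 24), above 99.4% of all genes. Slc6a6, the taurine transporter, followed at 27.0 ± 3.93 TPM. Hspa4l, a chaperone of the HSP110 family first described as osmotic stress protein 94, stood at 14.5 ± 3.02 TPM. Nfat5 itself was at 9.54 ± 1.59 TPM, and Slc5a3, the sodium/myo-inositol cotransporter, at 4.01 ± 0.782 TPM. The betaine transporter Slc6a12 (BGT1) reached 0.951 ± 0.487 TPM and the urea transporter gene Slc14a2 (UT-A) 0.23 ± 0.14 TPM. The order held in 24 of 24 libraries for every neighbouring pair. The median TPM ratio of neighbours was 8.48 between Akr1b3 and Slc6a6, 1.9 between Slc6a6 and Hspa4l, and 1.54 between Hspa4l and Nfat5. It was 2.28 between Nfat5 and Slc5a3, 4.56 between Slc5a3 and Slc6a12, and 4.33 between Slc6a12 and Slc14a2. Transcripts for the carriers of myo-inositol, taurine and betaine thus stood at very unequal levels in the same libraries, and protein was not examined.

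**Figure D1:**
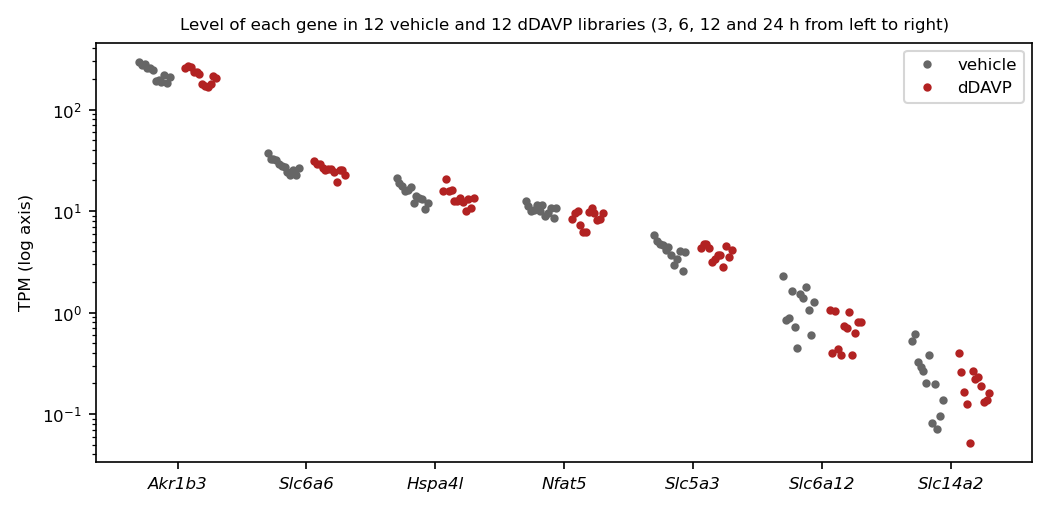
TPM of each of the 7 genes (log axis) in the 12 vehicle and 12 dDAVP libraries, 1 point per library, ordered 3, 6, 12 and 24 h from left to right within each colour. The genes keep their order in 24 of 24 libraries, from Akr1b3 (165 to 297 TPM) to Slc14a2 (0.0514 to 0.617 TPM).

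Promoters are shown for 3 members because NFAT5 acts through the TonE and their windows differ in that site. The RefSeq promoter table (GRCm38.p6) matched 4 of the 7 genes. Each window covers the 250 bases before an annotated start, plus strand, and capitals mark a match to the TonE consensus or to TGACG, the core of the cAMP response element. The Slc5a3 window is cut at 198 bases, where an exon of Mrps6 begins, and that of Hspa4l lies mostly in an annotated exon and is not printed.
Nfat5, chr8:107293220-107293469: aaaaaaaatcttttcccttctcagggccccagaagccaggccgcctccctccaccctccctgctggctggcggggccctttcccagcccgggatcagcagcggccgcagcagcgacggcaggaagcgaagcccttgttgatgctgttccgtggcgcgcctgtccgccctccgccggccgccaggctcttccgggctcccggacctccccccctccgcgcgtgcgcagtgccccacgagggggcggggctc
Slc5a3, chr16:92058072-92058269: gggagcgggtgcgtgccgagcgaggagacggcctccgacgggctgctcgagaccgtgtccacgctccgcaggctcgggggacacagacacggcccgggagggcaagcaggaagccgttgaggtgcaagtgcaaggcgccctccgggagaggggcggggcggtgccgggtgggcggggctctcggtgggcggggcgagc
Slc6a12, chr6:121342324-121342573: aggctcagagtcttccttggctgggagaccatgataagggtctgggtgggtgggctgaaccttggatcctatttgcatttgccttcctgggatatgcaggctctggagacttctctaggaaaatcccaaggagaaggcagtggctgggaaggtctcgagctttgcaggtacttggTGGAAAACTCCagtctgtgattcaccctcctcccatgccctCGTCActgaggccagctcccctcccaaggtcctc

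The Slc6a12 window held the TonE consensus on the plus strand and TGACG on the minus strand. The TonE match begins with TGGAAA, the shorter core searched separately, so the 2 motifs overlap there. Neither Nfat5 nor Slc5a3 had a match to TonE, TGGAAA or TGACG in its window, and the other 4 annotated Slc6a12 windows had none either. On both strands of 32851 promoter windows of 250 bases, the TonE consensus occurred in 4.31%, TGGAAA in 18.6%, TGACG in 17.8% and TGACGTCA in 1.55%. GC content was 71.6% for Nfat5, 74.8% for Slc5a3 and 55.6% for Slc6a12, against a median of 52.4% over all windows. The GC box GGGCGG, present in 32.7% of windows, occurred 2 times for Nfat5, 4 times for Slc5a3 and 0 times for Slc6a12.

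In the GRCm38 assembly, Nfat5 (ENSMUSG00000003847) spans 107293470 to 107379517 of chromosome 8. Akr1b3 (ENSMUSG00000001642) spans 34302434 to 34317478 of chromosome 6, on the minus strand. Slc5a3 (ENSMUSG00000089774) spans 92058322 to 92087473 of chromosome 16, inside the span of Mrps6, a mitochondrial ribosomal protein gene on the same strand that averaged 131 CPM. The division of reads between those overlapping genes is uncertain. Slc6a6 (ENSMUSG00000030096) and Slc6a12 (ENSMUSG00000030109) lie on chromosome 6 at 91684053 to 91759066 and 121343076 to 121365775. Hspa4l (ENSMUSG00000025757) spans 40744495 to 40796103 of chromosome 3, and Slc14a2 (ENSMUSG00000024552) spans 78146148 to 78596942 of chromosome 18. Weakly read transcripts overlap Akr1b3 (antisense Gm14546, 0.618 CPM), Slc6a6 and Slc14a2.

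All 7 genes passed the filter on low counts, and none was at 0 in any library. Levels across libraries of 1 gene are given below as CPM, counts relative to the TMM-scaled library total and not to length, and changes as log2 fold changes from a quasi-likelihood F test in edgeR. Adjusted p is by the Benjamini-Hochberg method over 29743 genes tested, with 0.05 as the threshold. In bulk RNA, fewer cells expressing a gene and less RNA per cell cannot be told apart.

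At 3 h of dDAVP, 0 of 7 genes passed the test, where 0.484% of all genes did. Slc6a12 stood at 1.86, 1.66 and 1.94 CPM with vehicle and at 1.27, 1.17 and 1.28 CPM with dDAVP. Its 3 dDAVP values all lay under the vehicle values, a pattern that 8.06% of tested genes showed. The fitted log2 change of Slc6a12 was -0.55 ± 0.27 (SE), with an adjusted p of 0.365 by edgeR. Nfat5 read 134, 143 and 150 CPM with vehicle and 116, 158 and 159 CPM with dDAVP, so the groups overlapped. The other 5 genes overlapped between treatments as well, with fitted log2 changes from -0.32 for Slc14a2 to 0.19 for Akr1b3. On the TPM scale Akr1b3 and Slc6a6 had the other sign, at -0.127 and -0.193 in limma on log2(TPM + 1), with adjusted p of 0.207 and 0.187. At an unadjusted p under 0.05 the count was also 0 in edgeR, and DESeq2 and limma called 0 members at 3 h.

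At 6 h Akr1b3 and Slc6a6 were higher with dDAVP, 2 of 7 genes, against 38.1% of all genes called and 20.9% called higher. Akr1b3 read 461, 461 and 496 CPM with vehicle and 600, 685 and 592 CPM with dDAVP. Slc6a6 read 159, 152 and 166 CPM with vehicle and 219, 228 and 181 CPM with dDAVP. The groups did not overlap for either gene, as for 29.8% of tested genes that were higher in all dDAVP libraries. Fitted log2 changes were 0.40 ± 0.14 (SE, adjusted p = 0.0283, edgeR) for Akr1b3 and 0.39 ± 0.13 (SE, adjusted p = 0.0246, edgeR) for Slc6a6. The median log2 change over the 11836 genes with a mean of at least 5 CPM was 0.335, and over all tested genes -0.394, so both genes lay near the median of well-read genes.

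The direction at 6 h turned with the scaling. In TPM, Akr1b3 read 256, 257 and 248 with vehicle and 235, 236 and 226 with dDAVP, so the dDAVP libraries were all lower. Slc6a6 read 31.6, 29.0 and 28.1 TPM with vehicle and 26.4, 25.6 and 25.9 TPM with dDAVP, again all lower. The share of tested genes without overlap in TPM was not counted, here or below. In limma on log2(TPM + 1) the differences were -0.126 for Akr1b3 (adjusted p = 0.126) and -0.179 for Slc6a6 (adjusted p = 0.121). With the receptor share as a covariate in edgeR they were 0.02 ± 0.08 (SE, adjusted p = 0.996) for Akr1b3 and 0.02 ± 0.08 (SE, adjusted p = 0.995) for Slc6a6. The fit with that covariate called 0.336% of all genes at 6 h, where share and treatment cannot be told apart. Leaving out any of the 6 libraries at 6 h ended the call of Akr1b3 (adjusted p 0.0733 to 0.241). The call of Slc6a6 ended on leaving out any of them but dDAVP replicate 3 (adjusted p 0.038 to 0.225). These 6 fits called 0.268% to 29.8% of all genes, against 38.1% with all libraries.

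Of the other members at 6 h, Hspa4l and Slc5a3 had fitted changes of 0.24 ± 0.12 (SE, adjusted p = 0.0942, edgeR) and 0.23 ± 0.13 (SE, adjusted p = 0.126, edgeR). For Slc6a12 and Slc14a2 they were -0.435 ± 0.272 and -0.42 ± 0.435 (SE). Nfat5 read 143, 157 and 155 CPM with vehicle and 159, 146 and 131 CPM with dDAVP, with a fitted change of -0.06 ± 0.12 (SE, adjusted p = 0.67, edgeR). In TPM its vehicle libraries read 10.3, 11.4 and 10.1 and its dDAVP libraries 7.25, 6.2 and 6.28, which did not overlap. Nfat5 passed the test, lower with dDAVP, in limma on log2(TPM + 1) at -0.612 (adjusted p = 0.00983) and with a filter of at least 5 CPM at -0.367 ± 0.0747 (SE, adjusted p = 0.00729, edgeR). With the receptor share as a covariate it was -0.286 ± 0.106 (SE, adjusted p = 0.601, edgeR).

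At 12 h 0 of 7 genes passed, with 0.0773% of all genes called, and the count was 0 at an unadjusted p under 0.05, in DESeq2 and in limma too. Slc6a12 again had all dDAVP libraries below all vehicle libraries, at 1.64, 1.33 and 1.48 CPM against 1.97, 2.43 and 2.11 CPM. That order was shown by 2.24% of tested genes, and the fitted log2 change was -0.55 ± 0.27 (SE, adjusted p = 0.917, edgeR). Akr1b3 read 313, 455 and 374 CPM with vehicle and 354, 342 and 392 CPM with dDAVP, with the dDAVP values inside the vehicle range.

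At 24 h 0 of 7 genes passed in edgeR, DESeq2 or limma, with 0.0841% of all genes called in edgeR, and 1 gene, Slc5a3, had an unadjusted p under 0.05 (0.281 ± 0.126, log2, SE). Hspa4l read 89.7, 81.2 and 78.4 CPM with vehicle and 92.8, 96.2 and 100 CPM with dDAVP. Slc14a2 had 5, 8 and 11 estimated counts with vehicle and 12, 10 and 16 with dDAVP. In CPM the dDAVP libraries of these 2 genes all lay above the vehicle libraries, as for 4.25% of tested genes. Their fitted log2 changes were 0.21 ± 0.12 and 0.78 ± 0.48 (SE), both with an adjusted p of 1 in edgeR. For Slc6a12 the vehicle libraries spread from 1.52 to 3.21 CPM and enclosed the dDAVP values of 2.47, 2.36 and 2.33 CPM.

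**Figure D2:**
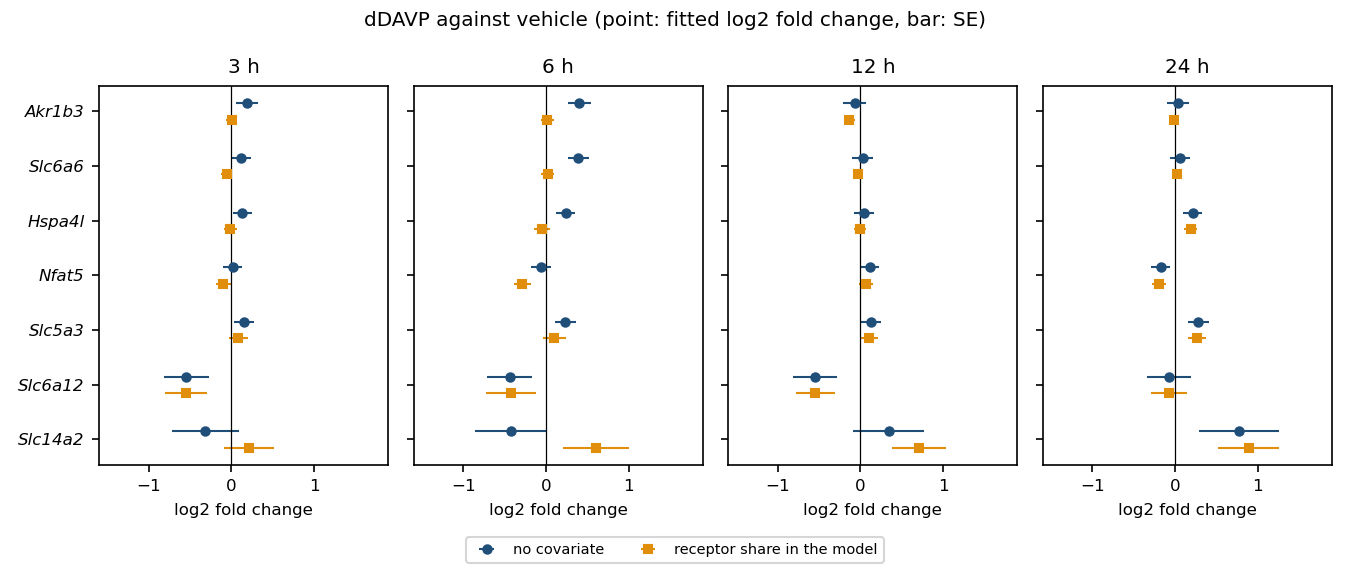
Fitted log2 fold change of dDAVP against vehicle (horizontal axis) for the 7 genes at 3, 6, 12 and 24 h, with the SE as bars, without a covariate (circles) and with the receptor share as a term (squares). At 6 h Akr1b3 and Slc6a6 move from 0.40 and 0.39 to 0.02 and 0.02, while Slc6a12 stays on the lower side in all 4 panels.

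Averaged over the 4 times, Slc6a12 was lower and Slc5a3 and Hspa4l were higher with dDAVP, 3 of 7 genes, where 33.1% of all genes were called. The mean log2 effect was -0.40 ± 0.13 (SE, adjusted p = 0.0314) for Slc6a12, 0.20 ± 0.06 (SE, adjusted p = 0.0275) for Slc5a3 and 0.16 ± 0.06 (SE, adjusted p = 0.0428) for Hspa4l, all by edgeR. For Slc6a12, whose libraries held 20 to 67 estimated counts, the sign was negative under every scaling tried, with -0.350 (adjusted p = 0.0323) in limma on log2(TPM + 1) and -0.324 ± 0.138 (SE, adjusted p = 0.0707, edgeR) under RLE scaling. DESeq2 called Slc5a3 and Hspa4l but not Slc6a12, where 28.5% of all genes were called. With the receptor share as a covariate Slc6a12 was at -0.397 ± 0.142 (SE, adjusted p = 0.331, edgeR), the same size without passing. Slc5a3 and Hspa4l also lost their calls with the covariate, at 0.139 ± 0.067 (SE, adjusted p = 0.602, edgeR) and 0.029 ± 0.0454 (SE, adjusted p = 0.921, edgeR). The mean effect in that fit was called for 1.22% of all genes. For Slc5a3 and Hspa4l the sign turned negative in limma on log2(TPM + 1), at -0.047 and -0.115. Leaving out 1 library at a time moved the adjusted p from 0.0215 to 0.0711 for Slc6a12, from 0.0113 to 0.0941 for Slc5a3 and from 0.01 to 0.16 for Hspa4l, which were called in 10, 8 and 4 of 24 such fits. Without vehicle 12 h replicate 2, Akr1b3 (adjusted p = 0.021) and Slc6a6 (adjusted p = 0.0133) passed as well, which gave 5 genes. The effect of dDAVP changed with time for 0 of 7 genes, where 0.343% of all genes passed that F test of 3 contrasts in edgeR, and the count was 0 at an unadjusted p under 0.05 as well.

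**Figure D3:**
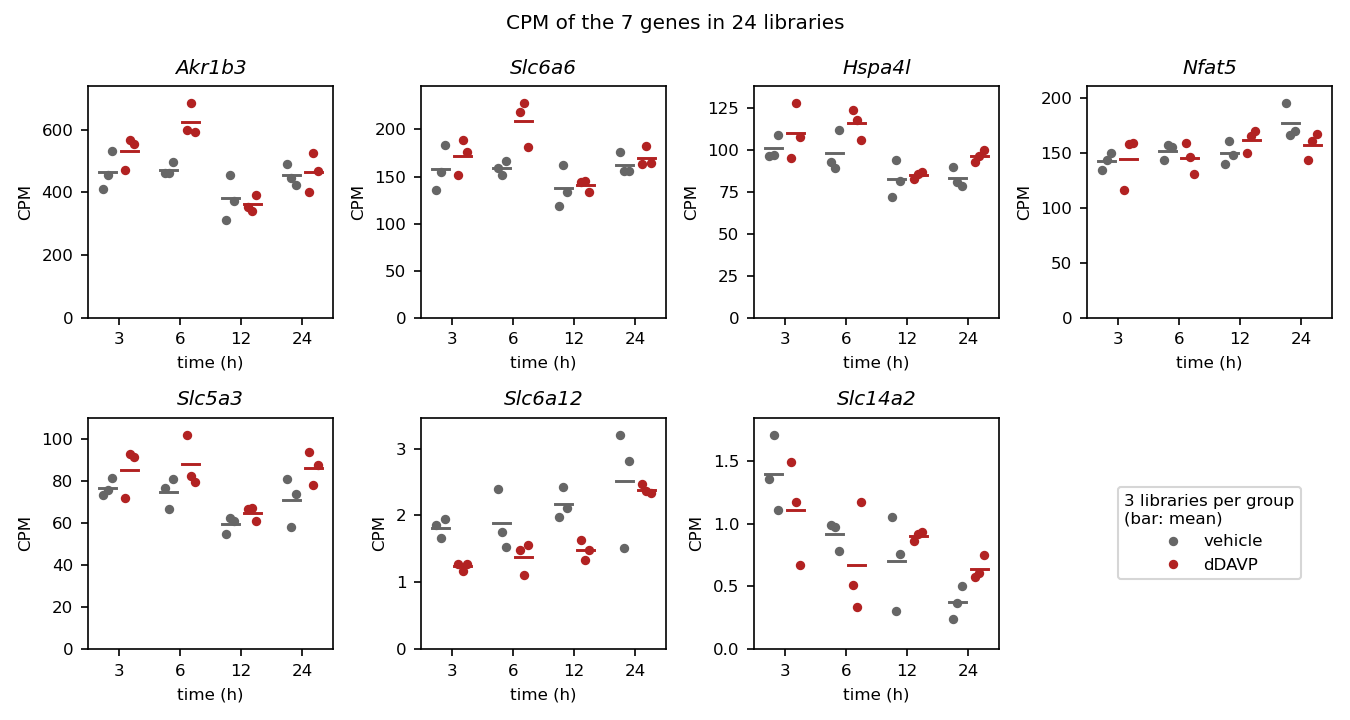
CPM of the 7 genes (vertical axis, from 0) at 3, 6, 12 and 24 h, 1 point per library with the group mean as a bar, for vehicle and dDAVP. The dDAVP means of Akr1b3 and Slc6a6 fall from 626 to 362 CPM and from 209 to 141 CPM between 6 and 12 h, and Slc14a2 with vehicle falls from 1.39 to 0.372 CPM between 3 and 24 h.

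Values with vehicle also differed between times. Between 3 and 24 h of vehicle, Nfat5 rose and Slc14a2 fell, 2 of 7 genes, where 38.0% of all genes were called. That share was 0.699% with the receptor share as a covariate and 9.57% without the 2 libraries of highest receptor share. Nfat5 went from 134, 143 and 150 CPM to 195, 166 and 170 CPM, without overlap, as 22.4% of tested genes did upward. The log2 change of Nfat5 was 0.32 ± 0.12 (SE, adjusted p = 0.0378, edgeR). In limma on log2(TPM + 1) it was -0.176 (adjusted p = 0.171), so the direction of Nfat5 over time also turned with the scaling. Once the receptor share was a covariate, the Nfat5 change was 0.0968 ± 0.104 (SE, adjusted p = 0.844, edgeR), and the call ended. Nfat5 lost its call on leaving out any of the 6 libraries but vehicle 3 h replicate 3 (adjusted p 0.0396 to 0.164).

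Slc14a2 went from 33, 37 and 24 estimated counts at 3 h of vehicle to 5, 8 and 11 at 24 h. Its log2 change was -1.885 ± 0.452 (SE, adjusted p = 0.00784, edgeR). The receptor share of the same groups went from 0.629% ± 0.257 to 0.225% ± 0.0655 (SD, n = 3 each). With that share as a covariate the change of Slc14a2 was -0.83 ± 0.43 (SE, adjusted p = 0.514, edgeR). Slc14a2 lost its call without vehicle 3 h replicate 1 (adjusted p = 0.0522) or vehicle 24 h replicate 1 (adjusted p = 0.0534).

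Akr1b3 and Hspa4l with vehicle gave a value that depended on the setting. Hspa4l went from 96.5, 97.3 and 109 CPM at 3 h to 89.7, 81.2 and 78.4 CPM at 24 h, all lower, as 30.1% of tested genes were. Its log2 change was -0.28 ± 0.12 (SE, adjusted p = 0.0601, edgeR), and -0.562 ± 0.0936 (SE, adjusted p = 0.00182, edgeR) with the receptor share as a covariate. In limma on log2(TPM + 1) Hspa4l gave -0.659 (adjusted p = 0.00604). Akr1b3 read 412, 454 and 532 CPM at 3 h and 491, 447 and 425 CPM at 24 h, which overlapped, with a log2 change of -0.04 ± 0.14 (SE, adjusted p = 0.827, edgeR). In TPM it read 297, 277 and 281 at 3 h and 221, 181 and 209 at 24 h, without overlap. Akr1b3 gave -0.405 ± 0.0793 (SE, adjusted p = 0.0113, edgeR) with the covariate and -0.487 (adjusted p = 0.00036) in limma.

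With dDAVP, 0 of 7 genes passed between 3 and 24 h in edgeR, where 1.3% of all genes did. At an unadjusted p under 0.05 the count was 1, and DESeq2 and limma called 1 gene each. Slc6a12 came closest, going from 1.27, 1.17 and 1.28 CPM to 2.47, 2.36 and 2.33 CPM without overlap, as 12.2% of tested genes did upward. Its log2 change was 0.94 ± 0.27 (SE, adjusted p = 0.0838, edgeR), and 0.94 ± 0.26 (SE, adjusted p = 0.0374, edgeR) with the receptor share as a covariate. On the TPM scale Slc6a12 gave -0.0495 (adjusted p = 0.91, limma), so the value at 24 h was not above that at 3 h on that scale. DESeq2 gave Slc6a12 1.05 ± 0.31 (log2, SE, adjusted p = 0.0391). Akr1b3 was the gene called in limma (-0.389, adjusted p = 0.00248), and with the covariate it was at -0.418 ± 0.069 (SE, adjusted p = 0.000603, edgeR). In F tests over all 4 times, Slc14a2 passed with vehicle (adjusted p = 0.0409), where 10.1% of all genes did, and Akr1b3 passed with dDAVP (adjusted p = 0.00724), where 2.28% did. The Slc14a2 call held in 3 of 12 fits that left out 1 vehicle library, those without 3 h replicate 3 or 12 h replicate 1 or 2 (adjusted p 0.0107 to 0.221 over the 12). With the receptor share as a covariate Slc14a2 was not called, and Akr1b3, Slc6a6 and Hspa4l were (2.59% of all genes). RLE scaling (2.48%), no filter (3.7%) and only the groups compared (0.546%) gave 0 members with vehicle. Slc14a2 kept its call in limma on log2(TPM + 1) (6.16%) and with the replicate block (16.4%). The Akr1b3 call held in 9 of 12 and was lost without dDAVP 6 h replicate 2 (0.088) or 12 h replicate 1 (0.0983) or 2 (0.108). Akr1b3 also lost its call with dDAVP under RLE scaling (0.672% of all genes called). It kept the call with the receptor share as a covariate, a fit that called 5 members (8.99%).

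A shared pattern was a step down between 6 and 12 h in 4 members, Akr1b3, Slc5a3, Slc6a6 and Hspa4l, with dDAVP and vehicle alike in sign. This comparison was chosen after the values had been seen. Averaged over the 2 treatments, 4 of 7 genes were lower at 12 h, where 2.31% of all genes were called and 1.45% were called lower. With a filter of at least 5 CPM the same 4 members were called, where 24.5% of 13123 genes were. Akr1b3 fell by 0.55 ± 0.10 (log2, SE, adjusted p = 0.00126, edgeR), from means of 473 to 381 CPM with vehicle and 626 to 362 CPM with dDAVP. In TPM, the 6 h vehicle libraries of Akr1b3 read 256, 257 and 248 and the 12 h vehicle libraries 190, 196 and 189. With dDAVP it read 235, 236 and 226 TPM at 6 h and 178, 170 and 165 TPM at 12 h. All 12 h libraries of Akr1b3 were below all 6 h libraries of the same treatment on either scale. In CPM 3.28% of tested genes showed that order with vehicle and 18.5% with dDAVP, and the share in TPM was not counted. Its difference in limma on log2(TPM + 1) was -0.422 (adjusted p = 5.69e-06).

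Slc6a6 fell by 0.39 ± 0.09 (log2, SE, adjusted p = 0.0155, edgeR), reading 119, 162 and 133 CPM at 12 h of vehicle and 144, 145 and 133 CPM at 12 h of dDAVP. The dDAVP libraries did not overlap with those at 6 h, and the vehicle libraries did. Slc5a3 fell by 0.39 ± 0.09 (log2, SE, adjusted p = 0.0155, edgeR). It read 76.8, 66.6 and 81.0 CPM at 6 h of vehicle and 54.8, 62.4 and 60.7 CPM at 12 h. With dDAVP Slc5a3 read 102, 82.2 and 79.7 CPM at 6 h and 66.4, 67.1 and 60.7 CPM at 12 h. Neither treatment overlapped between the times. Mrps6, which contains Slc5a3, moved by -0.37 ± 0.10 (log2, SE, adjusted p = 0.0332, edgeR) between the same times, and the part of shared reads in the Slc5a3 value was not tested. Hspa4l fell by 0.35 ± 0.08 (log2, SE, adjusted p = 0.0199, edgeR), from 124, 118 and 106 CPM to 82.5, 85.8 and 87.1 CPM with dDAVP. With vehicle Hspa4l read 93.1, 89.3 and 112 CPM at 6 h and 72.1, 94.0 and 81.7 CPM at 12 h, which overlapped.

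Nfat5 did not pass the test for that step. It read 140, 161 and 148 CPM at 12 h of vehicle and 150, 165 and 170 CPM at 12 h of dDAVP, against 143, 157 and 155 CPM and 159, 146 and 131 CPM at 6 h, so the times overlapped in both treatments. Its log2 change over both treatments was 0.07 ± 0.08 (SE, adjusted p = 0.785, edgeR). Slc6a12 and Slc14a2 had fitted changes of 0.15 ± 0.19 and 0.02 ± 0.31 (SE). All libraries at 12 h were below all libraries at 6 h for 2 members with vehicle, against 3.28% of tested genes, and for 4 members with dDAVP, against 18.5%.

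By treatment, 4 members fell between 6 and 12 h of dDAVP, where 3.65% of all genes were called and 3.07% called lower, and 0 of 7 passed with vehicle in edgeR, where 0.309% were called. With dDAVP, DESeq2 called Akr1b3 and Slc6a6, and limma on log2(TPM + 1) called Akr1b3 as lower and Nfat5 as higher (0.537, adjusted p = 0.00541). On leaving out each of the 6 dDAVP libraries in turn, Akr1b3 kept its call in 5 of 6 fits and lost it without dDAVP 6 h replicate 2 (adjusted p = 0.0621). Slc6a6 was called in 1 of 6 fits, the one without dDAVP 6 h replicate 3 (adjusted p = 0.0469), and had 0.112 to 0.24 in the others. Slc5a3 and Hspa4l were called in 0 of 6 fits (adjusted p 0.0967 to 0.446 and 0.0852 to 0.341). These fits, with 2 libraries left in 1 group, called 0.402% to 1.07% of all genes, against 3.65% with all libraries. With vehicle 3 members had an unadjusted p under 0.05, DESeq2 called 0, and limma on log2(TPM + 1) called 1. Other edgeR fits did call members with vehicle. The filter of at least 5 CPM called Akr1b3, Slc5a3, Slc6a6 and Hspa4l (8.94% of genes tested). The receptor share as a covariate gave Akr1b3, Slc6a6 and Hspa4l (2.99%), and both together 4 members (14.1%). With dDAVP the same filter called 4 members (20.3%), with Nfat5 in place of Slc5a3, and the covariate 3 (4.93%). The log2 changes with dDAVP were -0.79 ± 0.14 (SE) for Akr1b3, -0.57 ± 0.13 for Slc6a6, -0.45 ± 0.12 for Hspa4l and -0.44 ± 0.13 for Slc5a3. With vehicle they were -0.31 ± 0.14 for Akr1b3, -0.20 ± 0.13 for Slc6a6, -0.25 ± 0.12 for Hspa4l and -0.34 ± 0.13 for Slc5a3. The difference between the treatments was itself tested, and 0 of 7 genes passed in edgeR, where 0.504% of all genes did, with 2 at an unadjusted p under 0.05 and 0 called by DESeq2 or limma. The receptor share rose with dDAVP from 0.196% ± 0.0727 at 6 h to 0.334% ± 0.0524 at 12 h and was 0.526% ± 0.0727 and 0.477% ± 0.285 with vehicle (SD, n = 3 each).

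With the receptor share as a covariate, all 4 genes were still called in edgeR. That fit called 9.39% of all genes, against 2.31% without the covariate. The values were -0.497 (adjusted p = 1.55e-08) for Akr1b3, -0.33 (adjusted p = 9.92e-06) for Slc6a6, -0.305 (adjusted p = 0.000213) for Hspa4l and -0.367 (adjusted p = 0.00188) for Slc5a3. Under median-of-ratios (RLE) scaling in edgeR no member was called, with an adjusted p of 0.0513 for Akr1b3 and 0.216 for Slc6a6. On leaving out 1 of the 12 libraries, Akr1b3 was called in 12 of 12 fits (adjusted p at most 0.0125). Slc5a3 was called in 7 of 12 fits and failed without vehicle 6 h replicate 1 or 3, dDAVP 6 h replicate 1, or dDAVP 12 h replicate 1 or 3 (adjusted p at most 0.138). Slc6a6 and Hspa4l were each called in 4 of 12 fits. Both genes failed without dDAVP 6 h replicate 1 or 2, vehicle 6 h replicate 3, vehicle 12 h replicate 3 or any dDAVP 12 h replicate. Slc6a6 also failed without vehicle 6 h replicate 1 (adjusted p = 0.0532) and Hspa4l without vehicle 12 h replicate 1 (adjusted p = 0.0593). Their highest adjusted p were 0.111 and 0.138. The 12 fits called 1.02% to 5.59% of all genes, against 2.31% with all libraries.

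**Figure D4:**
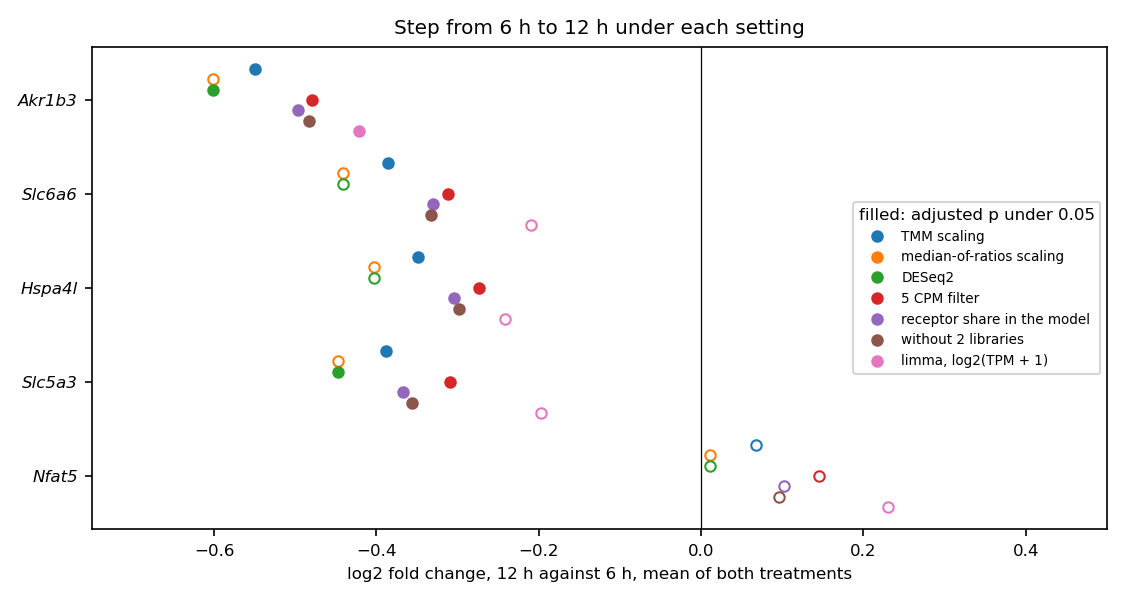
Log2 fold change of 12 h against 6 h, averaged over both treatments (horizontal axis), for 5 genes under 7 ways of scaling, filtering or modelling, with filled points where the adjusted p was under 0.05. Akr1b3, Slc6a6, Hspa4l and Slc5a3 lie below 0 under each, and Nfat5 lies above 0 without a filled point.

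Members that stepped down together also varied together across libraries. Over the 24 libraries the Pearson correlation of log2 CPM was 0.914 between Akr1b3 and Slc6a6, 0.844 between Akr1b3 and Hspa4l and 0.811 between Slc6a6 and Hspa4l. Slc5a3 correlated with these at 0.686 to 0.796. Nfat5 had correlations from -0.0915 with Hspa4l to 0.148 with Slc6a6 against the same 4 genes. These correlations describe libraries that share times, treatments and scaling factors, and they carry no test.

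The protein-coding genes most like each member over the 24 libraries were sought among 10663 with a mean of at least 5 CPM. For Akr1b3 they were Plac8 (Pearson r = 0.949), Rexo2 (0.948) and Slc25a5 (0.947). For Slc6a6 they were Ltv1 (0.974), Chchd4 (0.965) and Qrsl1 (0.964). Hspa4l was most like Hsph1 (0.928), another HSP110 chaperone gene, then Gpr137b (0.904) and Tmed5 (0.895). Slc5a3 was most like Slco4a1 (0.875), Ercc8 (0.854) and Pik3r3 (0.852), and Nfat5 most like Phc3 (0.838), Myo9a (0.833) and Mms19 (0.811). Slc6a12 was most like Pdxk (0.735), Ptger1 (0.733) and Scnn1g (0.733). Slc14a2 was most like Vmn2r4 (0.853), Olfr318 (0.84) and Vmn2r102 (0.839), which are vomeronasal and olfactory receptor genes.

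Slc14a2 followed the receptor share across libraries. Over 24 libraries Pearson's r was 0.767 (permutation p = 2e-05, adjusted p = 0.00014) and Spearman's rho was 0.753 (permutation p = 5e-05, adjusted p = 0.00035). With the 2 libraries of most extreme share, measured from the median, left out, Slc14a2 had r = 0.718. Slc6a6 went the other way, with r = -0.671 (permutation p = 0.00023, adjusted p = 0.0008), rho = -0.658 (permutation p = 0.00063, adjusted p = 0.0022) and r = -0.573 without 2 libraries. Nfat5 had r = -0.511 (permutation p = 0.011, adjusted p = 0.024) and rho = -0.548 (permutation p = 0.0067, adjusted p = 0.016). Akr1b3 had r = -0.497 (permutation p = 0.014, adjusted p = 0.024) and rho = -0.45 (permutation p = 0.028, adjusted p = 0.05). The other 3 genes had r from -0.345 to -0.0611 with adjusted p from 0.14 to 0.77, in 7 relations computed by permutation in all. The permutations ran over all 24 libraries and not within the 8 groups. Their p-values therefore also take in differences between the groups. The labels name no batch within which to repeat the relations, and receptor reads enter the same scaling as the members.

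**Figure D5:**
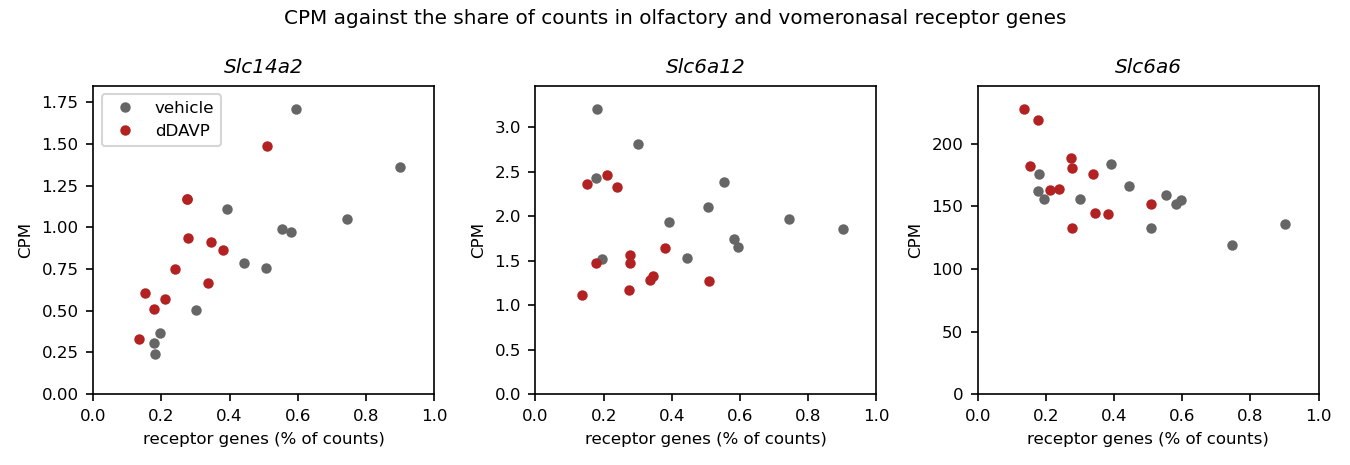
CPM of each plotted gene (vertical axis) against the receptor share (horizontal axis, percent of counts), 1 point per library, for 12 vehicle and 12 dDAVP libraries. Slc14a2 rises with the share (r = 0.767) and Slc6a6 falls (r = -0.671).

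Other genes of the osmolyte and volume program were read from 8 lists. In the group for taurine, betaine and glycerophosphocholine (GPC), another medullary osmolyte, 2 of 12 genes were higher at 3 h of dDAVP. Of all genes 0.484% were called at 3 h. Gdpd1, a glycerophosphodiesterase, had 17.9 ± 3.03 CPM with vehicle and 41.6 ± 2.8 CPM with dDAVP (SD, n = 3 each), a log2 change of 1.22 ± 0.14 (SE, adjusted p = 6.12e-06, edgeR). Gpcpd1, which splits GPC, had 14.2 ± 1.31 and 22.2 ± 3.01 CPM (SD, n = 3 each), a log2 change of 0.64 ± 0.13 (SE, adjusted p = 0.017, edgeR). At 6 h the log2 changes were 0.95 ± 0.14 (SE, adjusted p = 0.00021, edgeR) for Gdpd1 and 0.45 ± 0.13 (SE, adjusted p = 0.0203, edgeR) for Gpcpd1. At 12 and 24 h Gdpd1 had 0.43 and 0.40 (adjusted p = 0.917 and 1, edgeR), and with the receptor share as a covariate 0.36 and 0.36 (adjusted p = 0.0427 and 0.0376, edgeR). With that covariate Gdpd1 passed at all 4 times, and Gpcpd1 at 3 h (0.52, adjusted p = 0.0118) but not at 6 h (0.20, adjusted p = 0.902).

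At 6 h of dDAVP many list genes were called, against 38.1% of all genes. They were 4 of 11 polyol genes (3 higher), 5 of 12 for taurine, betaine and GPC, 4 of 7 amino acid transporters and 7 of 12 chaperones and other NFAT5 targets (6 higher). They were also 12 of 19 NFAT5 regulators, 3 of 8 genes of the NFAT family and calcineurin, 7 of 14 volume regulation genes and 3 of 6 urea and water channels (2 higher). List medians ran from -0.272 for urea and water channels to 0.349 for the chaperones, beside 0.335 for well-read genes. With the receptor share as a covariate the only calls left in these lists were Gdpd1 and the water channel Aqp5 (1.38), a gene that was also called at 3, 12 and 24 h. That fit called 0.336% of all genes at 6 h. At 12 and 24 h no list gene but Aqp5 was called without the covariate, where 0.0773% and 0.0841% of all genes were. With it, Gdpd1 was called at both times and the water channel Aqp6 at 24 h (1.73 ± 0.325, SE, adjusted p = 0.0108, edgeR).

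Between 6 and 12 h over both treatments, 2.31% of all genes were called and 1.45% called lower. In the lists, 3 of 7 amino acid transporters fell, with a list median of -0.26. They were Slc6a9, a glycine transporter (-0.69 ± 0.11, SE, adjusted p = 0.00033, edgeR), Slc7a5 (-0.39, adjusted p = 0.0242) and Slc38a1 (-0.26, adjusted p = 0.0489). Of 12 chaperones and other targets 3 fell, with a list median of -0.248: Hsph1 (-0.45 ± 0.09, SE, adjusted p = 0.00438, edgeR), Hspa1b (-0.45, adjusted p = 0.00989) and Sgk1, a kinase induced by salt and steroids (-0.65 ± 0.12, SE, adjusted p = 0.00198, edgeR). Of 14 volume regulation genes 2 fell, the volume-regulated anion channel subunits Lrrc8a (-0.34, adjusted p = 0.033) and Lrrc8b (-0.45, adjusted p = 0.0188). Without a covariate, none of 11 polyol genes passed beside Akr1b3, nor any of the 19 NFAT5 regulators, the 8 NFAT family genes or the 6 tested urea and water channels. The median over all genes tested was 0.0805 and over well-read genes -0.0363. In the fit with the receptor share as a covariate 9.39% of all genes were called between these times. The lists then gave 5 of 7 amino acid transporters, 7 of 12 chaperones and other targets and 3 of 14 volume regulation genes lower, and 3 polyol genes higher with 1 lower.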

How the data were processed

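RNA was measured in 24 libraries of mpkCCD cells, 3 for each of 8 groups of treatment and time, grouped by the labels. Per the labels' protocols, total RNA was reverse transcribed with a SMART-Seq HT kit and libraries were prepared by a Nextera protocol. The authors deposited estimated counts per Ensembl gene, not normalized, and a second table of TPM, scaled by the authors per library and for transcript length. The submitters' processing notes list Salmon 0.14.10 and the build GRCm38.p6. Its settings, the transcript annotation, the use of strand and how transcripts were summed: not given in the sources used here. Each of the 24 columns of either table matched a label.

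The 7 members, the lists of other genes and the comparisons were chosen with earlier results of these data known. Identifiers were named through GENCODE M21, which matched 54346 of 54432. Estimated counts were rounded to whole numbers, scaled by TMM (factors 0.8138 to 1.326) and filtered with filterByExpr, which kept 29743 genes. One mean per group was fitted over all 24 libraries in edgeR 4.0.16 (R 4.3.3), and contrasts went through its quasi-likelihood F test, with p adjusted by Benjamini-Hochberg over all genes tested. The test was checked on simulated counts with the same spread for every gene, a small set of changed genes and no difference in receptor share. That check does not cover the turns of direction with scaling seen here. CPM and TPM values are per library, and counts carry no correction for length. The comparisons were those of dDAVP with vehicle at the 4 times, their mean, their dependence on time, and 24 h against 3 h within each treatment. The F tests over time and the 12 h against 6 h comparisons were added after the values were seen.

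Alternatives were RLE scaling, DESeq2 1.42.0, leaving the filter off, keeping only genes of at least 5 CPM (13123 genes), the replicate number as a block, limma 3.58.1 on log2(TPM + 1) or log2(TPM + 0.1), only the groups compared, the receptor share (log2 of the percent) as a covariate, leaving out the 2 libraries of highest receptor share, leaving out each library, and a threshold of 0.01. The covariate together with the 5 CPM filter was added later. Named genes were all 7 members, all called genes of another list where at most 3 were called and otherwise the 3 of smallest p in the mean effect, and the 3 genes most like each member. Correlations with the receptor share used 100000 permutations over all 24 libraries, not within groups, two-sided. Figures were drawn with matplotlib 3.10.9.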

Additional observations from a re-analysis of the deposited data

How the results depend on the processing

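The count of members called was 0 at 3, 12 and 24 h of dDAVP and for time dependence under every alternative run. The 5 CPM filter, applied to the highest group mean, removed Slc6a12 and Slc14a2, which reached at most 3.21 and 1.71 CPM in any library. Neither gene could be called in the fits with that filter. At 6 h the 2 calls became 0 under RLE scaling (26.6% of all genes called) and without a filter (9.44%). They also became 0 with the receptor share as a covariate (0.336%), with that covariate and a 5 CPM filter (1.21%), and at a threshold of 0.01 (0.676%). With the 5 CPM filter (19.1%) and in limma on log2(TPM + 1) (21.9%) and log2(TPM + 0.1) (35.6%) both were lost and 1 other member, Nfat5, was called lower. The 3 calls of the mean effect became 2 in DESeq2 (Slc5a3 and Hspa4l, 28.5% of all genes called) and 1 under RLE scaling (Slc5a3, 21.2%). The 5 CPM filter (30.2%) called 1 other member, Nfat5. Limma (37.3% and 36.1%) called 4 members, of which 1, Slc6a12, was among the 3. The 3 calls became 0 without a filter (9.43%), with the covariate (1.22%), with the covariate and the 5 CPM filter (3.41%), and at 0.01 (1.31%). They also became 0 without the 2 libraries of highest receptor share, vehicle 3 h replicate 1 and vehicle 12 h replicate 1 (2.28%). For vehicle at 24 h against 3 h the 2 calls became 1 (Slc14a2) without a filter (16.3% of all genes called), without those 2 libraries (9.57%) and at 0.01 (6.64%). Other members were called with the 5 CPM filter (37.1%), 4 with 0 of the original calls, and Slc14a2 was not tested there. With the covariate (0.699%) 2 were called, Akr1b3 and Hspa4l, with 0 of the original calls. Limma called 5 and 5 (41.5% and 36.9%), which kept Slc14a2. For dDAVP at 24 h against 3 h the count of 0 became 1 in DESeq2 (1.78% of all genes called), in limma with either pseudocount (1.52% and 1.69%) and without those 2 libraries (5.65%). It became 2 with the 5 CPM filter (14%), and 3 with the covariate, alone (3.97%) or with that filter (14%). Leaving out 1 library gave 0 to 1 calls at 6 h, 0 to 5 for the mean effect, 0 to 2 for vehicle at 24 h against 3 h, and 0 to 0 for the rest. Of all genes, such fits called 0.268% to 29.8% at 6 h and 3.92% to 53.4% for the mean effect. For vehicle at 24 h against 3 h they called 1.45% to 48.8%.

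Directions that turned where either value was called were these, as log2 values in limma on log2(TPM + 1), then limma on log2(TPM + 0.1) and, where 3 values are given, edgeR with the covariate and the 5 CPM filter. At 6 h they were -0.126, -0.127 and -0.0192 for Akr1b3 and -0.179, -0.185 and -0.0144 for Slc6a6. For the mean effect they were -0.112 and -0.112 for Akr1b3, -0.047 and -0.0548 for Slc5a3, -0.12 and -0.124 for Slc6a6, and -0.115 and -0.122 for Hspa4l. For vehicle at 24 h against 3 h they were -0.176 and -0.191 for Nfat5, and -0.447, -0.461 and -0.322 for Slc6a6, with -0.229 under the 5 CPM filter alone. The cause was not tested. Of the remaining log2 values of single members, 1125 kept their direction and side of the threshold, 182 kept the direction and lost the call, and 55 kept it and gained one. Another 140 changed sign and were called in neither fit, among them Slc6a12 for dDAVP at 24 h against 3 h in limma (-0.0495 against 0.94).

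The labels do not say whether replicate numbers pair the samples. Correlations of same-numbered vehicle and dDAVP libraries, as deviations from group means, ran from -0.187 to 0.453, with 4 of 12 pairs over 0.1. With 3 libraries a group these values cannot exclude a pairing. The fit with the replicate number as a block called 2 members at 6 h (44.2% of all genes called) and 3 for the mean effect (38.4%). It called 2 for vehicle at 24 h against 3 h (41.7%) and 0 in the other comparisons of the design. In the comparisons added later, 12 h against 6 h over both treatments called 4 members, where 2.31% of all genes were called. It called 0 under RLE scaling (0.602% of all genes), 2 in DESeq2 (1.26%) and 1 without a filter (0.484%). With the 5 CPM filter alone it called the same 4, where 24.5% of genes were called. In limma it called 1 (4.75% and 4.96%), and at 0.01 also 1 (1.03%). With the covariate and the 5 CPM filter it called 5, the same 4 and Nfat5, where 29.8% of all genes were called. Leaving out a library gave 1 to 4. Slc14a2 at 5 to 37 and Slc6a12 at 20 to 67 estimated counts per library limit what can be seen for these genes.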
